A study of Mus musculus with 20 samples.

Results

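The genes described here are Cxcl1, Cxcl3, Cxcr2, Csf3r, S100a8 and S100a9, the chemokines, receptors and calcium-binding proteins that mark the recruitment of neutrophils on the NanoString mouse Immunology panel. They were chosen by name, with earlier results of these data known, and they make up 6 of the 547 endogenous genes of the panel. All 6 had a mean scaled count of at least 82, the filter used for every test, and each was counted by a single probe. RNA of whole left lung was measured in 20 male C57BL/6J mice, which were 5 to 8 weeks old when obtained. All of the mice ate an AIN-93G based diet for 4 weeks, either the control diet made with high-oleic safflower oil and no docosahexaenoic acid (DHA), a long-chain omega-3 fat, or the DHA-rich diet made with DHASCO oil. Each mouse then received 50 µL of sterile saline (PBS) or of 12.5% HDE, an extract of dust from a swine confinement facility, once through the nose, and the left lungs were collected 5 h later, after bronchoalveolar lavage, so cells washed out of the airspaces were not counted. The groups were control-diet saline (n = 4), control-diet HDE (n = 6), DHA-diet saline (n = 3) and DHA-diet HDE (n = 7), and single mice are named by group and a number that only identifies them. Cxcl1, Cxcl3 and Cxcr2 passed the filter only through the HDE mice, as their means after saline were 48.7, 29.0 and 53.2. For these genes, being tested was thus not independent of being high after HDE.

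Cxcl1 and Cxcl3 encode chemokines that epithelial cells, macrophages and stromal cells release early in inflammation, and both bind the receptor encoded by Cxcr2, which neutrophils carry and follow toward the source. Csf3r encodes the receptor of granulocyte colony-stimulating factor (G-CSF), which drives the production, release and survival of neutrophils. S100a8 and S100a9 encode the subunits of calprotectin, the most abundant cytosolic protein of neutrophils, which is also made by monocytes and is released as a danger signal. Transcription of the chemokine genes in activated cells is known to depend on the factor NF-κB, while the receptors and S100 genes are expressed as part of the myeloid programme. In lung homogenate, a higher count can come from more cells of a type or from more RNA per cell, and these cannot be told apart.

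The start-site regions of the chemokine and S100 genes are shown because the results turn on how far the chemokine genes rose beside the S100 genes. The sequences are RefSeq promoters of build GRCm38.p6, each running 5′ to 3′ on the strand of the gene from 250 bases before to 50 bases after the annotated start. The window of Cxcl1 is chr5:90890995-90891294 on the plus strand, that of Cxcl3 chr5:90785851-90786150 on the plus strand, that of S100a8 chr3:90668821-90669120 on the plus strand and that of S100a9 chr3:90695672-90695971 on the minus strand. Capitals mark matches on either strand to GGGNNTTTC, a pattern close to the usual NF-κB (κB) motif, and to TATAAA, the core of the TATA box. All patterns were searched on both strands and chosen after the sequences had been read, and a match is a description of the letters and not of a bound site.
Cxcl1: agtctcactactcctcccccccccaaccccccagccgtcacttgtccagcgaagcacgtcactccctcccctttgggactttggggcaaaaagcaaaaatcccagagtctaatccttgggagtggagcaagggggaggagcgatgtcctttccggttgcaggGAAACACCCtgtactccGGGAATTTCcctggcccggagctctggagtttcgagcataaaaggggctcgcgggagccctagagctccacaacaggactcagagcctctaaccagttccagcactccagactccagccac
Cxcl3: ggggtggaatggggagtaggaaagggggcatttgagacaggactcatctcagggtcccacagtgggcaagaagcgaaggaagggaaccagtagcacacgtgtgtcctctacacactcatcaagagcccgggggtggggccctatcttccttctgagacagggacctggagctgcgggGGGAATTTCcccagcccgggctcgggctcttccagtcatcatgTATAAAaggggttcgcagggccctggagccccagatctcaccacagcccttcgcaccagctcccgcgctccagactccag
S100a8: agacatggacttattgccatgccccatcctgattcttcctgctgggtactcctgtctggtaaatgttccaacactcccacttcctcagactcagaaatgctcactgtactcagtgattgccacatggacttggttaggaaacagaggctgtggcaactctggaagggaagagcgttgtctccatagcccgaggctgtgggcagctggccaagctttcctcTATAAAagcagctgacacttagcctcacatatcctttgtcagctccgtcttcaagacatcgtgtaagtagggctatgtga
S100a9: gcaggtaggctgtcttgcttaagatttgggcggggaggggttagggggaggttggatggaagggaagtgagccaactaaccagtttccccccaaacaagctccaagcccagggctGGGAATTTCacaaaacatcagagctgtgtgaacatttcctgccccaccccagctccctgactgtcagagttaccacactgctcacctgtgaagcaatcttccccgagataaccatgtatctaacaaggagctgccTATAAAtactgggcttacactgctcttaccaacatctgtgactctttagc
Cxcl1 held the pattern GGGNNTTTC on both strands, 88 to 80 bases before the start on the minus strand and 71 to 63 bases before it on the plus strand. Cxcl3 held the same 9 letters GGGAATTTC at 73 to 65 bases before its start and TATAAA at 30 to 25 bases before it. S100a9 held GGGAATTTC at 135 to 127 bases before the start, and its TATAAA began at the annotated start itself, whereas S100a8 held TATAAA at 30 to 25 bases before the start and no match to GGGNNTTTC. In the window of Cxcr2 (chr1:74153744-74154043, plus strand) GGGNNTTTC matched once on the minus strand, and the window of Csf3r (chr4:126024409-126024708, plus strand) held neither pattern. The κB pattern was thus found in 4 of 6 members, compared with 4.36% of the 32851 RefSeq promoters of the same length, and TATAAA in 3 of 6, compared with 13.6%. As the patterns were chosen after these sequences had been read, the shares are descriptions and carry no test. Both were found in Cxcl3 and S100a9, compared with 0.639% of all promoters. GAGGAA, a core of PU.1 motifs, was found in 3 of 6 (Cxcr2, Csf3r and S100a8), compared with 28.3%. The windows of Cxcl1 and Cxcl3 were identical at 53.9% of aligned positions, and those of the other pairs at 44.4 to 50.6%. In the RefSeq gene order, S100a8 and S100a9 are neighbours, Cxcl1 lies between Cxcl15 and Cxcl2, Cxcl3 lies between Pf4 and Cxcl15, and Cxcr2 is next to Cxcr1.

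Between 123536 and 684074 endogenous counts were read per mouse, and each mouse was scaled by its housekeeping genes Rpl19, Ppia, Oaz1 and Eef1g. After HDE these genes differed from saline by between -0.28 and 0.19 on the log2 scale. One mouse, control-diet HDE mouse 6, had counts in the range of the saline mice or below it for each of the 6 members, and its result is given separately where it matters. A second mouse, control-diet HDE mouse 3, had a summed thymocyte marker count of 18031.1, compared with 396.7 to 899.4 in the DHA-diet HDE mice. With both of these mice left out, a choice made after the data were seen, all 6 members and 169 of 350 genes tested were called higher after HDE. Lanes were split over 2 cartridges of 10 mice, cartridge 1 with 2, 2, 2 and 4 mice of the groups in the order given above and cartridge 2 with 2, 4, 1 and 3. In the labels the 2 cartridges also carry different run dates, so cartridge and run date cannot be told apart. The lungs came from several experimental sets, and since the labels do not tie mice to sets, differences between sets cannot be told apart from differences between mice.

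The first question was how far a single exposure to HDE moved these genes. HDE raised all 6 members over the 20 mice, and the chemokines rose most, Cxcl3 by 55.9-fold and Cxcl1 by 21.1-fold. The S100 genes rose 7.94-fold and 7.55-fold, and the receptors Cxcr2 and Csf3r 4.82-fold and 4.79-fold. By edgeR's quasi-likelihood test with a threshold of 0.05 on the adjusted p, HDE raised 152 of the 358 genes tested, which is 42.5%, and lowered 18, so a call in itself sets the members little apart. The median log2 fold change was 2.95 over the 6 members and 0.47 over all genes tested. With TMM scaling, which assumes that most genes do not change, the median over all genes moved to -0.03, the calls to 106 higher and 94 lower, and the members rose by 1.62 to 5.28, all 6 of them called. The p-values were computed with mice as the units, so they set each change against the spread between these mice. The main model held neither cartridge nor experimental set.

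Cxcl1, the main neutrophil chemokine of the mouse, had scaled counts of 42.1, 70.3, 69.1 and 47.7 in the control-diet saline mice and 22.1, 67.8 and 21.5 in the DHA-diet saline mice. In control-diet HDE mice the lowest, median and highest scaled counts were 27.5, 924.4 and 1736.3, and in DHA-diet HDE mice they were 230.0, 623.6 and 2799.5. Every DHA-diet HDE mouse lay above all saline mice, as did all control-diet HDE mice other than mouse 6. The log2 fold change over the 20 mice was 4.40 (SE 0.68, adjusted p = 3.02e-05, edgeR), with a 95% interval from 2.99 to 5.81. In 3 of 7 saline mice the count was not above the background, defined as the mean plus 2 SD of the negative control probes of that mouse, so the saline level was near the lower limit of the assay.

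Cxcl3, a close relative of Cxcl1 that acts on the same receptor, had scaled counts of 21.0, 10.3, 6.28 and 11.9 in control-diet saline mice and 24.5, 121.1 and 7.96 in DHA-diet saline mice. In control-diet HDE mice its lowest, median and highest scaled counts were 12.6, 889.9 and 2136.0, and in DHA-diet HDE mice they were 736.2, 1752.1 and 3352.1. Among the saline mice, DHA-diet saline mouse 2 stood far above the rest, and only control-diet HDE mouse 6 reached down among the saline mice. The log2 fold change of 5.80 (SE 0.78, adjusted p = 1.33e-05, edgeR) was the largest of the 358 genes tested over the 20 mice. Only 2 of 7 saline mice were above background for Cxcl3, compared with all 13 HDE mice. With the counts below background set to the background, an alternative added after the data were seen, the fold changes were 29.1 for Cxcl3 and 12.9 for Cxcl1 (exact permutation p = 1.59e-04 and 2.78e-04, two-sided). The order of the chemokines was the same, and with the background subtracted instead the log2 fold changes were 8.45 and 5.72.

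**Figure D1:**
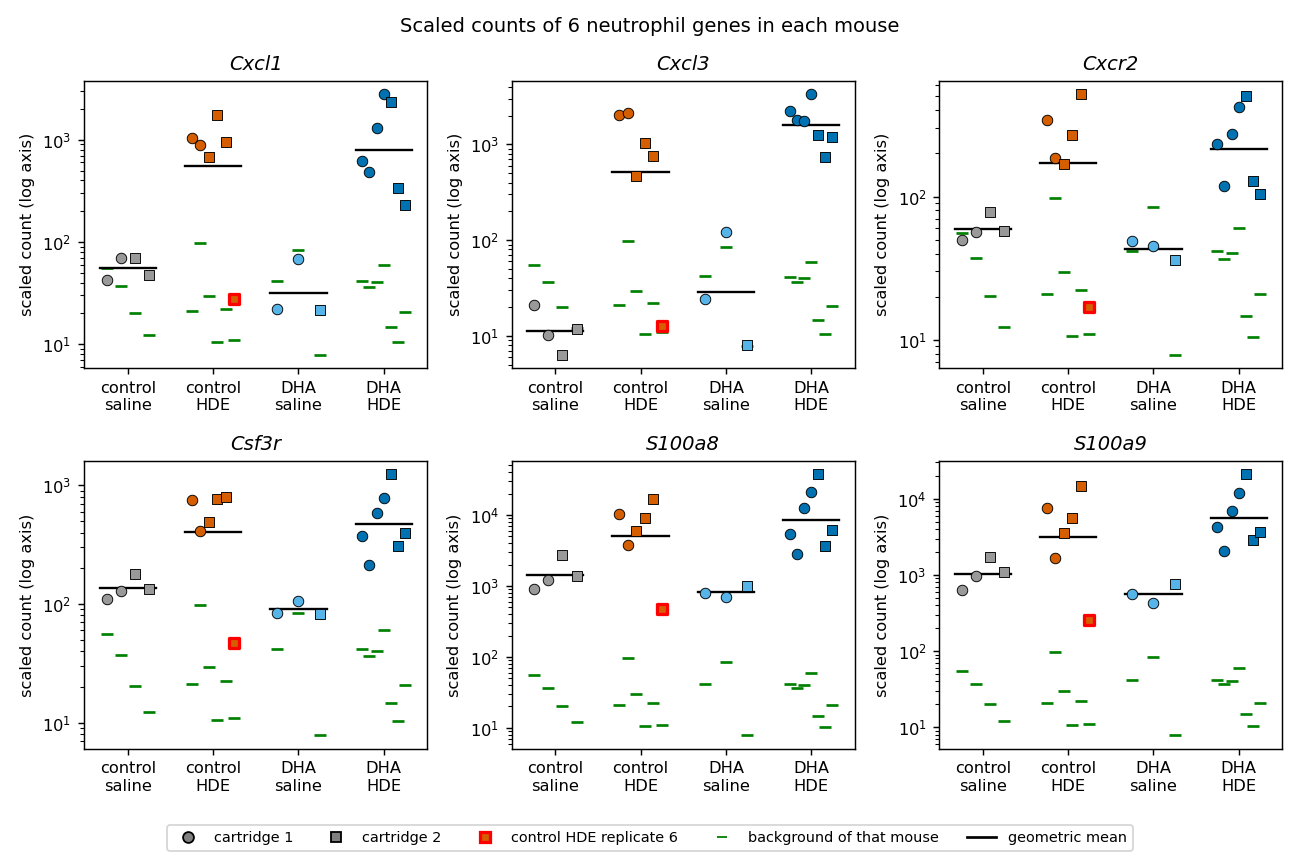
Scaled count of each of the 6 genes (log axis) in each mouse, by group; circles are cartridge 1, squares cartridge 2, the horizontal line is the geometric mean of the group, the green dash is the background of that mouse and the red ring marks control-diet HDE mouse 6. The HDE mice lie above the saline mice in every panel apart from the ringed mouse, with partial overlap for S100a9.

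Cxcr2, the receptor for both chemokines, was counted at low levels after saline, 49.6, 56.9, 77.7 and 57.7 scaled counts on the control diet and 49.0, 45.2 and 36.2 on the DHA diet. After HDE the lowest, median and highest scaled counts were 16.9, 227.7 and 518.9 on the control diet and 104.1, 232.7 and 500.7 on the DHA diet. The groups on the DHA diet did not overlap, and the medians of both diets after HDE were close to each other. The log2 fold change was 2.27 (SE 0.46, adjusted p = 5.05e-04, edgeR). With counts below background set to background, as above, it was 1.73 (exact permutation p = 0.00587).

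Csf3r, the G-CSF receptor, had scaled counts of 111.2, 128.3, 179.0 and 134.2 in control-diet saline mice and 83.4, 106.8 and 82 in DHA-diet saline mice, above background in every mouse. In control-diet HDE mice its lowest, median and highest scaled counts were 46.8, 620.9 and 790.4, and in DHA-diet HDE mice they were 213.7, 395.4 and 1237.9. Again control-diet HDE mouse 6 was the only HDE mouse that did not exceed every saline mouse. The log2 fold change of 2.26 (SE 0.43, adjusted p = 2.57e-04, edgeR) was close to that of Cxcr2.

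S100a8 had scaled counts of 910.8, 1216.6, 2762.3 and 1391.1 in control-diet saline mice and 784.7, 708.4 and 999.4 in DHA-diet saline mice. Its lowest, median and highest scaled counts were 466.1, 7502.9 and 16797.8 in control-diet HDE mice and 2784.9, 6221.1 and 37454.8 in DHA-diet HDE mice. The highest saline mouse, control-diet saline mouse 3, lay only just below the lowest DHA-diet HDE mouse. The log2 fold change was 2.99 (SE 0.64, adjusted p = 7.41e-04, edgeR).

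S100a9, its partner in calprotectin, had scaled counts of 637.3, 975.6, 1724.6 and 1077.4 in control-diet saline mice and 556.6, 429.2 and 755.5 in DHA-diet saline mice. Its lowest, median and highest scaled counts were 254.3, 4549.8 and 14770.5 in control-diet HDE mice and 2090.9, 4300.8 and 20966.0 in DHA-diet HDE mice. The same saline mouse was again the highest, and here 11 of 13 HDE mice lay above every saline mouse. The log2 fold change was 2.92 (SE 0.63, adjusted p = 7.95e-04, edgeR).

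In the other 5 members 12 of 13 HDE mice exceeded every saline mouse. At least 12 of 13 did so in 20.7% of the genes tested, whether members or not. In scaled counts, control-diet HDE mouse 6 was below the lowest saline mouse for Cxcr2, Csf3r, S100a8 and S100a9, and between the saline mice for Cxcl1 and Cxcl3. Low scaled counts in this mouse were not particular to the members. Its summed markers of monocytes and macrophages (1120.9) and of endothelium (3706.1) were also below every saline mouse (lowest 1464.2 and 4254.6). Those of B cells and platelets were not. S100a8 and S100a9 made up 0.453% of its endogenous counts, compared with 0.449 to 2.16% in the saline mice. Without control-diet HDE mouse 6 the log2 fold changes were 4.57 for Cxcl1, 5.92 for Cxcl3, 2.41 for Cxcr2, 2.41 for Csf3r, 3.18 for S100a8 and 3.09 for S100a9. All 6 were called, among 166 of 358 genes called higher.

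The response was also taken within each diet. On the control diet 90 of 358 genes were called higher after HDE, or 25.1%, and all 6 members were among them. Cxcl3 rose by 6.46 on the log2 scale (adjusted p = 9.02e-04), Cxcl1 by 3.95 (adjusted p = 0.00308), Cxcr2 by 2.05 (adjusted p = 0.0224) and Csf3r by 1.97 (adjusted p = 0.0182, all edgeR). Since Cxcl3 was above background in none of the 4 saline mice of this diet, the size of its change is uncertain, with 10.1 after background subtraction and 5.42 from limma. S100a8 rose by 2.30 and S100a9 by 2.33 (adjusted p = 0.0361 for both, edgeR). At least 5 of 6 HDE mice lay above every saline mouse of this diet for 5 of the 6 members and for 35.5% of all genes tested, and for S100a9 it was 4 of 6. Calls for the receptors and S100 genes depended on single mice on this diet, as did calls over all genes. Leaving out control-diet saline mouse 1 or 4 left 2 of 6 members called, leaving out control-diet saline mouse 2 or 3 left 3, and leaving out control-diet HDE mouse 1, 4 or 5 left 4. In the same order, 44, 33, 57, 34, 72, 59 and 74 of all 358 genes were then called higher, compared with 90.

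On the DHA diet 109 of 358 genes were called higher after HDE, or 30.4%, again with all 6 members among them. Cxcl3 rose by 5.18 (adjusted p = 0.00271), Cxcl1 by 5.01 (adjusted p = 0.00263), S100a8 by 3.93 (adjusted p = 0.00493) and S100a9 by 3.69 on the log2 scale (adjusted p = 0.00736, all edgeR). Csf3r rose by 2.62 (adjusted p = 0.00570) and Cxcr2 by 2.55 (adjusted p = 0.0114, both edgeR). All 7 HDE mice lay above all 3 saline mice for 6 of 6 members, compared with 26.3% of the genes tested. Without DHA-diet saline mouse 2, the highest saline mouse for Cxcl3, the fold changes on the log2 scale were 6.83 for Cxcl3 and 5.72 for Cxcl1, and over the 20 mice 6.6 for Cxcl3. Without DHA-diet saline mouse 3, Cxcr2 missed the threshold (log2 fold change 2.42, adjusted p = 0.0736, edgeR). The median log2 fold change over all genes was 0.46 on each diet, and over the members it was 2.32 on the control diet and 3.81 on the DHA diet.

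Whether the response to HDE differed between the diets was tested as the interaction of diet and exposure in a model of the 4 groups. No gene was called at an adjusted p under 0.05 from edgeR (0% of 358 genes), nor by DESeq2 or limma, and 2.51% had an unadjusted p of at most 0.05. None of the 6 members was in that share. The response to HDE was larger on the DHA diet by 1.63 on the log2 scale for S100a8 (95% interval -0.58 to 3.84) and by 1.36 for S100a9 (-0.87 to 3.59), and by 1.06 for Cxcl1 (-1.26 to 3.38). The interaction was 0.50 for Cxcr2 (-1.28 to 2.27) and 0.65 for Csf3r (-0.97 to 2.28). For Cxcl3 it was -1.29 (-3.80 to 1.23), and it turned to 0.36 when DHA-diet saline mouse 2 was left out. Each adjusted p was 0.997 from edgeR, and each interval includes both a smaller and a larger response on the DHA diet.

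**Figure D2:**
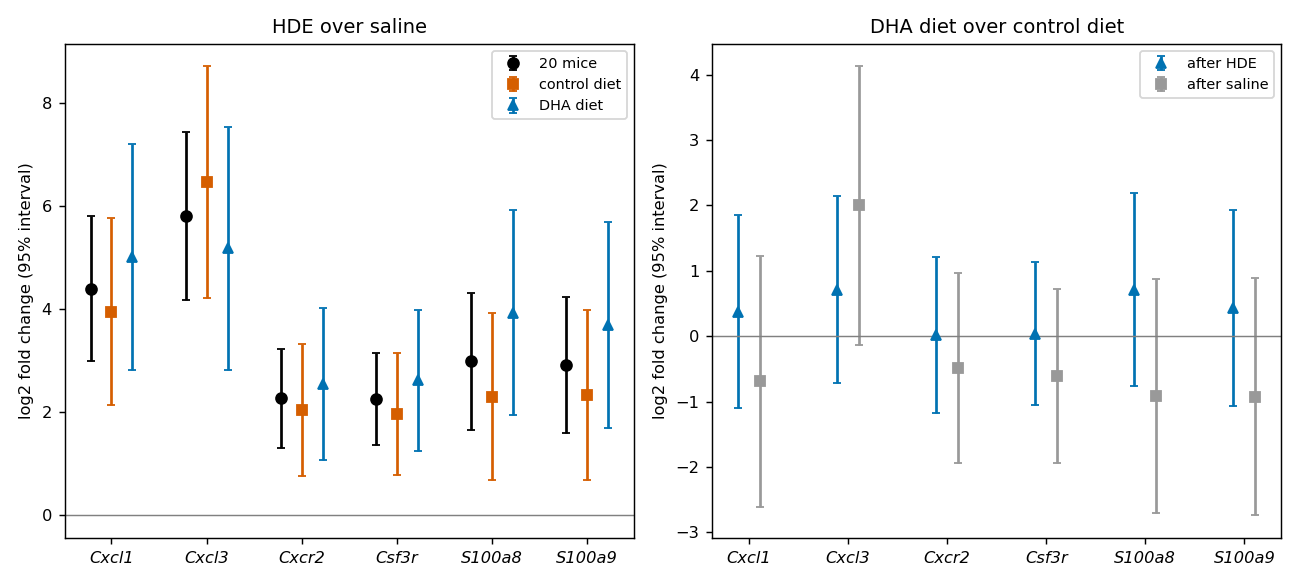
Log2 fold changes of the 6 genes with 95% intervals from edgeR, on the left HDE over saline for all 20 mice and for each diet and on the right DHA over control diet after HDE and after saline. Every interval on the left lies above 0, and every interval on the right includes 0.

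The effect of the DHA diet was compared among the 13 mice given HDE. No member passed the test, and none of the 363 genes tested was called by edgeR (0%) or limma and 3, none of them a member, by DESeq2 with the same scaling, while 4.96% had an unadjusted p of at most 0.05, none of them a member. After HDE the log2 difference of DHA over control diet was 0.71 for Cxcl3 (95% interval -0.71 to 2.14), 0.37 for Cxcl1 (-1.10 to 1.85), 0.71 for S100a8 (-0.76 to 2.18) and 0.43 for S100a9 (-1.06 to 1.93). It was 0.01 for Cxcr2 (-1.18 to 1.21) and 0.04 for Csf3r (-1.06 to 1.14). The adjusted p values of the members were 0.981 to 0.995 from edgeR. The upper bounds correspond to 2.31-fold for Cxcr2, 2.20-fold for Csf3r and 4.55-fold for S100a8, so equal levels were not shown. A single mouse, DHA-diet HDE mouse 5, had the highest count of S100a8 and of S100a9, and without it the difference was 0.14 for S100a8 and -0.08 for S100a9. Without control-diet HDE mouse 6 it was 0.45 for Cxcl3, 0.46 for S100a8, -0.24 for Cxcr2 and -0.21 for Csf3r.

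Over all 20 mice the diet changed none of the genes at an adjusted p under 0.05 (0% by edgeR, and none by DESeq2 or limma), and 3.91% had an unadjusted p of at most 0.05. Cxcl3 was higher on the DHA diet by 1.09 on the log2 scale (95% interval -0.08 to 2.26, edgeR adjusted p = 0.924), and the other 5 members lay between -0.18 and 0.17. After saline alone, again none was called (0% by edgeR, and none by DESeq2 or limma) and 0.279% of genes had an unadjusted p of at most 0.05. Cxcl3 was higher on the DHA diet by 2.0 (-0.13 to 4.12, edgeR adjusted p = 0.994), the largest log2 difference of the 358 genes in either direction. The other 5 members were lower by 0.49 to 0.93, all with intervals that include 0. Without DHA-diet saline mouse 2 this difference was 0.35, and it rested on counts near background, since none of the 4 mice on the control diet and 2 of the 3 on the DHA diet were above it.

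Because all members rose, the ratio of each pair within a mouse was compared between HDE and saline. Such a ratio does not depend on the scaling of the mouse, and its level depends on the probes, so only its change is read. Exact permutation within diets over 25200 arrangements gave an adjusted p under 0.05 for 11 of the 15 pairs, adjusted over the 15 ratios. Cxcl3 rose more than Cxcl1 by 1.72 on the log2 scale, or 3.28-fold (exact p = 0.00417, adjusted p = 0.00694). On the control diet the mean log2 ratio of Cxcl3 to Cxcl1 went from -2.31 (SD 1.06, n = 4) after saline to -0.10 (SD 0.97, n = 6) after HDE, and on the DHA diet from -0.15 (SD 1.16, n = 3) to 1.00 (SD 1.14, n = 7). With counts below background set to background this change was 1.18 (exact permutation, adjusted p = 0.0318).

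The receptors and the S100 genes rose less than either chemokine. The ratio of Cxcr2 to Cxcl1 fell by 2.04 on the log2 scale and that of Csf3r to Cxcl1 by 1.97 (exact permutation, adjusted p = 3.97e-04 and 4.46e-04). For S100a8 and S100a9 over Cxcl1 the changes were -1.39 and -1.54 (exact permutation, adjusted p = 0.00372 for both). In 3 of the 7 saline mice Cxcl1 was not above background, so the sizes of these 4 changes are uncertain. They were -1.14 to -1.95 with counts below background set to it and -2.59 to -3.78 with background subtracted. Ratios of these 4 genes to Cxcl3 changed by -3.10 to -3.75 (exact permutation, adjusted p from 3.97e-04 to 0.00149). Cxcl3 was not above background in 5 of the 7 saline mice, so these sizes are uncertain, and they were -2.32 to -3.13 with counts below background set to it and -5.26 to -6.45 with background subtracted. The receptor for the chemokines and the chemokines themselves thus moved by different amounts in the same lungs.

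Ratios among the receptors and S100 genes changed less. The log2 ratio of Csf3r to Cxcr2 changed by 0.06 (exact permutation, adjusted p = 0.683). That of S100a9 to S100a8 changed by -0.15 (exact permutation, adjusted p = 0.231). S100a8 rose more than Cxcr2 by 0.65 and more than Csf3r by 0.59 (exact permutation, adjusted p = 0.0231 and 0.0247). These ratios depended on the treatment of background. With the background subtracted Csf3r over Cxcr2 changed by -1.07 and was called (exact permutation, adjusted p = 0.025), S100a8 over Cxcr2 changed by -1.06, the opposite direction, and S100a8 over Csf3r by 0.01. Between the diets after HDE none of the 15 ratios was called, with a lowest adjusted p of 0.27 (exact permutation, 1716 arrangements).

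**Figure D3:**
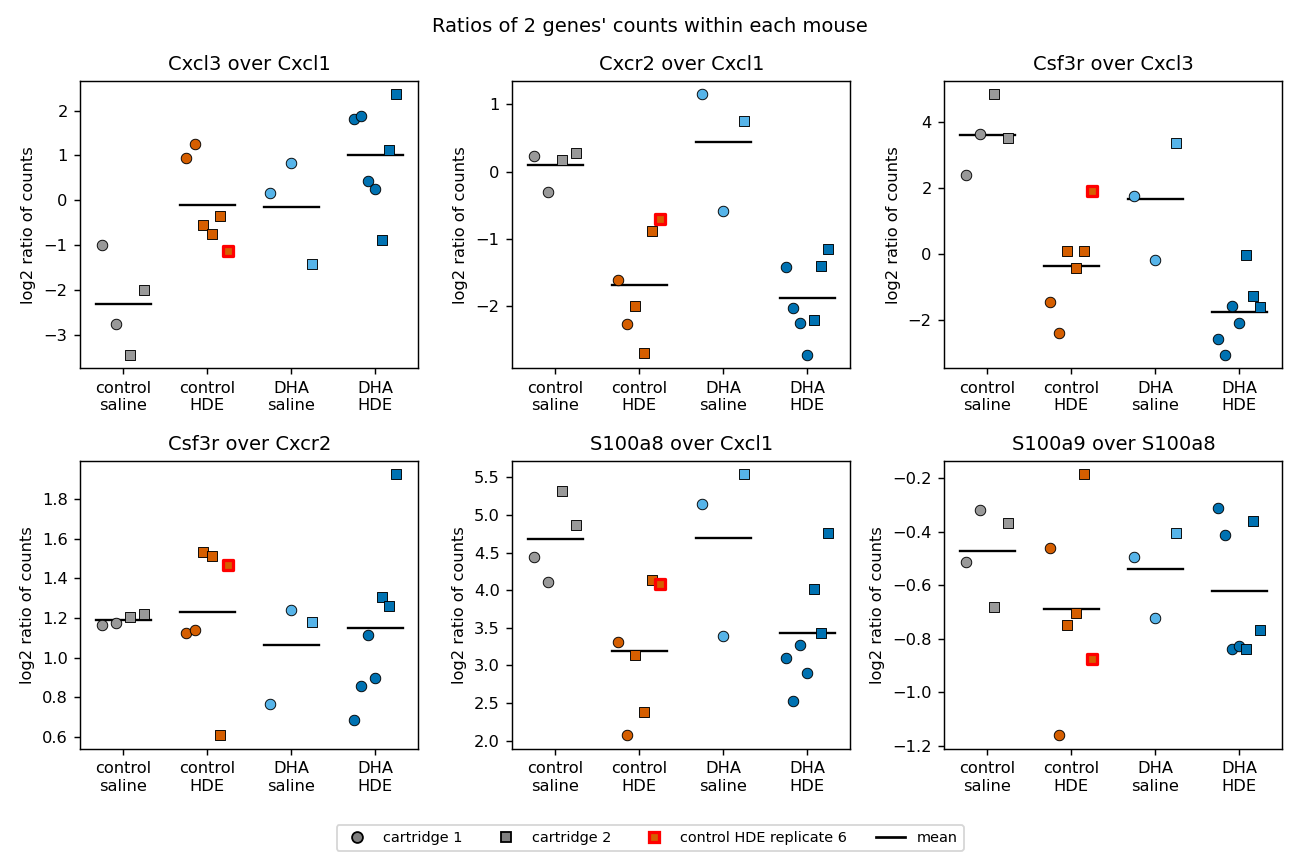
Log2 ratio of pairs of scaled counts within each mouse, by group, with the group mean as a line. The ratio of Cxcl3 to Cxcl1 is higher and those of Cxcr2 to Cxcl1, Csf3r to Cxcl3 and S100a8 to Cxcl1 are lower after HDE, whereas Csf3r to Cxcr2 and S100a9 to S100a8 stay within the range of the saline mice on average.

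S100a8 and S100a9 together took a visible share of all counts of the panel. They made up 0.570, 0.953, 2.16 and 1.24% of the endogenous counts of the control-diet saline mice and 0.591, 0.449 and 0.908% in DHA-diet saline mice. After HDE the lowest, median and highest shares were 0.453, 3.60 and 9.11% on the control diet and 1.75, 3.41 and 12.6% on the DHA diet. In DHA-diet HDE mouse 5, the 12.6% was 85987 of 684074 counts, and that lane also had the highest total of all mice. With diet means removed on the log2 scale, the share was 3.94-fold higher after HDE, which is given as a description.

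**Figure D4:**
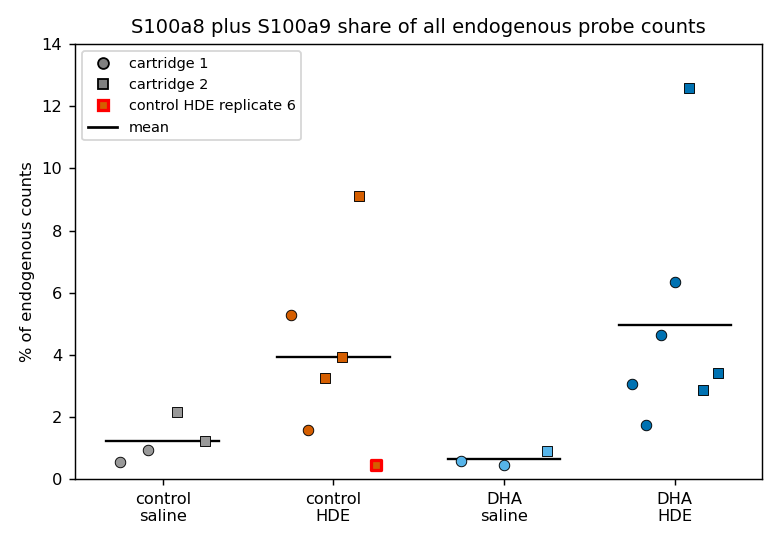
Percent of endogenous counts taken by S100a8 and S100a9 together in each mouse, by group. The saline mice lie between 0.449 and 2.16% and the HDE mice between 0.453 and 12.6%.

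How the members varied together was examined among the 13 mice given HDE, over all 15 pairs. The 10 pairs without Cxcl3 correlated at r from 0.868 to 0.985 (Spearman's rho 0.78 to 0.956) on log2 scaled counts, with p-values by permutation, adjusted over the 15 pairs, of 3.75e-05 to 0.00103, the lowest unadjusted p of 1e-05 being the smallest that the resamples can give. The highest was that of S100a8 with S100a9 (r = 0.985), followed by S100a8 with Csf3r (r = 0.965) and Csf3r with Cxcr2 (r = 0.959). Without the 2 mice farthest from the median, r of these 10 pairs was 0.719 to 0.956. The level of Cxcl1 went with that of its receptor Cxcr2 from mouse to mouse (r = 0.944, and 0.843 without control-diet HDE mouse 6).

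The pairs with Cxcl3 gave lower values. Its 5 pairs with the other members gave r from 0.70 to 0.817 (permutation, adjusted p = 0.0137 to 0.0379), with rho from 0.192 to 0.44 and none of the 5 called by rho, and r from -0.075 to 0.372 without the 2 mice farthest from the median. These values rested on control-diet HDE mouse 6. Without it, r of the 5 pairs was 0.014 to 0.349 (permutation, none called, adjusted p = 0.362 to 0.964), while the other 10 pairs kept r from 0.676 to 0.968 and all 10 were called. With cartridge means removed and all 13 mice kept, r of the 5 pairs with Cxcl3 was 0.798 to 0.86 and all 5 were called, 2 of them also by rho. With that mouse left out and cartridge means removed, r was 0.314 to 0.492 for these 5, none of them called, and 0.746 to 0.967 for the other 10. The difference between the correlations was not tested.

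Within diets, r of the pairs without Cxcl3 was 0.868 to 0.992 on the control diet and 0.821 to 0.994 on the DHA diet, compared with 0.774 to 0.95 and 0.229 to 0.578 for those with Cxcl3. Within cartridge 1 it was 0.769 to 0.967 compared with 0.503 to 0.726. Within cartridge 2 it was 0.925 to 0.992 compared with 0.84 to 0.913, and without control-diet HDE mouse 6 0.745 to 0.976 compared with 0.182 to 0.465. All mice were scaled with the same 4 housekeeping genes, whose errors are shared by both genes of a pair.

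**Figure D5:**
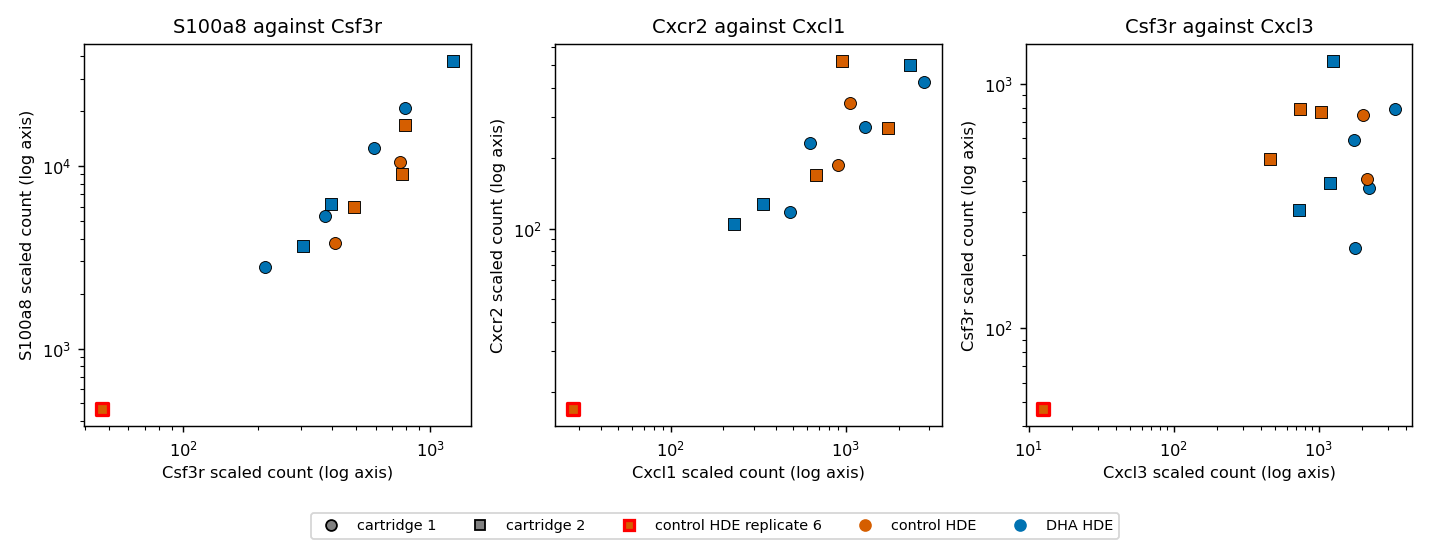
Scaled counts (log axes) of pairs of genes in the 13 mice given HDE, S100a8 against Csf3r, Cxcr2 against Cxcl1 and Csf3r against Cxcl3. In each panel the mouse at the lower left is control-diet HDE mouse 6. Without it r was 0.935, 0.843 and 0.014 in the order given, so the first and second pairs still follow a line and the third does not.

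Cxcl3 also separated the cartridges, and with them the run dates. Its scaled counts among HDE mice were 1752.1 to 3352.1 on cartridge 1 and 12.6 to 1260.3 on cartridge 2, so that all 7 mice of cartridge 2 lay below all 6 of cartridge 1. Such a separation was found for 10 genes, or 2.79% of those tested, and Cxcl3 was the only member among them. In the 4-group model with cartridge added, Cxcl3 was lower on cartridge 2 by 1.51 on the log2 scale (SE 0.49, adjusted p = 0.0566, edgeR) and Cxcl1 by 0.34 (adjusted p = 0.746, edgeR). In that model 37 of 358 genes were called lower on cartridge 2 and 2 higher, with a median of -0.27, and Cxcl3 was not among those called. Exact permutation within diets among the HDE mice gave p = 0.0362 for Cxcl3 (adjusted p = 0.217). The effect of HDE on Cxcl3 was 5.78 on cartridge 1 alone and 6.30 on cartridge 2 alone, so it was as large within each. On cartridge 1 alone all 6 members were called, and on cartridge 2 alone Cxcl3 was called and the other 5, with log2 fold changes of 2.13 to 4.35, were not. Calls were fewer on cartridge 2 over all genes too, with 137 of 365 called higher on cartridge 1 and 40 of 342 on cartridge 2.

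The other genes of the pathway were taken from lists drawn up by name, and each list's count stands against 42.5% of all 358 genes called higher after HDE, with a median of 0.47. Of the 7 genes on the panel listed as CXCR2 ligands or related chemokines, chemokine receptors and scavengers, 6 were tested. The 3 that rose after HDE were Cxcl1, Cxcl3 and Cxcr2, with a median of 1.20 over the 6. These 3 passed the filter only through the HDE mice, as given above. Cxcl15, a chemokine made by lung epithelium, had a log2 fold change of -0.32 (adjusted p = 0.225, edgeR), and Ppbp, a platelet chemokine, -0.57 (adjusted p = 0.347, edgeR). The receptor Cxcr1, a gene next to Cxcr2, was too low to be tested. The rise was thus not shared by all chemokines of this list, although differences between these genes were not tested.

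Among granulocyte growth factors, their receptors and inducers, 8 of 9 tested genes rose, compared with 42.5% of all genes, Csf3r included, with a median log2 fold change of 2.56. Those with the smallest p were the cytokine genes Il1b, which rose by 4.92 (adjusted p = 9.1e-06), Tnf by 3.64 (adjusted p = 2.32e-05) and Il1a by 3.87 (adjusted p = 2.33e-05), and Csf2, which encodes the growth factor GM-CSF, by 2.79 (adjusted p = 1.39e-05, all edgeR). All of them are known inducers of neutrophil production, activation or chemokine release. Csf2, Il1a, Tnf and Il6 passed the filter only through the HDE mice, as their means after saline were 66.4, 57.4, 41.9 and 37.0. For these genes, being tested was thus not independent of being high after HDE. Of the 13 genes of this list on the panel, 9 were tested. Il17ra, the receptor of interleukin 17A, was not called (0.68, adjusted p = 0.0528, edgeR), and Il17a itself was above background in none of the 7 saline mice and 1 of 13 HDE mice. Of the neutrophil surface, granule and effector genes 14 of 18 tested rose, with a median of 1.5, S100a8 and S100a9 included. Il1r2, Trem1, Clec4e, Clec5a and Itgam, all among those that rose, passed the filter only through the HDE mice. The pattern receptor gene Clec4e rose by 3.84 (adjusted p = 1.37e-05), Ptafr, the receptor of platelet-activating factor, by 3.70 (adjusted p = 1.64e-05), the interleukin 1 receptor antagonist gene Il1rn by 3.13 (adjusted p = 3.92e-05) and the decoy receptor gene Il1r2 by 3.80 (adjusted p = 6.15e-05, all edgeR). Of the granule genes not tested, Camp was above background in none of the 7 saline mice and 1 of 13 HDE mice, and Ltf in 1 of 7 and 9 of 13. Of the adhesion genes used by neutrophils to enter tissue 6 of 12 rose, with a median of 0.90, among them the endothelial selectin gene Sele by 2.89 (adjusted p = 1.96e-04), the hyaluronan receptor gene Cd44 by 1.65 (adjusted p = 2.11e-04), the vascular adhesion gene Vcam1 by 1.76 (adjusted p = 7.95e-04) and the integrin gene Itgam by 1.42 (adjusted p = 9.33e-04, all edgeR). Those 6 of 12 are close to the share of all genes called, and Sele and Itgam passed the filter only through the HDE mice. No gene of these 4 lists was called lower.

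Markers of other cells were set beside these counts. Of the 6 neutrophil markers on the panel other than the members, 3 were tested and 2 rose, compared with 42.5% of all genes. Those 2, Il1r2 and Trem1, passed the filter only through the HDE mice, with means after saline of 23.8 and 38.2. Ceacam1 was not called (0.16, adjusted p = 0.659, edgeR), and Camp, Ltf and Cxcr1 were too low to be tested. The summed scaled count of the 6 was 275.9 to 362.2 and 259.0 to 404.5 after saline on the control and DHA diet. After HDE it was 164.7 to 1473.2 and 448.7 to 1788.9. Of the monocyte and macrophage markers, which include cells that also make S100a8 and S100a9, 2 of 7 tested rose with a median of 0.19. Their sums were 1464.2 to 2090.6 and 1484.4 to 1776.2 after saline and 1120.9 to 2472.1 and 1849.7 to 4052.9 after HDE. Of the B cell markers 2 of 5 tested were called lower after HDE, with log2 fold changes of -0.50 for Ms4a1 (adjusted p = 0.0346) and -0.50 for Cd79b (adjusted p = 0.013, both edgeR), compared with 18 of all 358 genes. Of the lung epithelium markers 1 of 4 rose, and none of the tested markers of thymocytes (8), T cells (3), NK cells (1), platelets (2) or endothelium (3) was called. The part of each cell type in the counts of the members was not tested.

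For each member the genes with the most similar residuals around the group means over the 20 mice were taken among the 358 tested, by Pearson's r. S100a8 and S100a9 were each most like the other (r = 0.983, and 0.967 without control-diet HDE mouse 6). Csf3r and the receptor gene Il4ra were the next for both, Il4ra with 0.935 for S100a8 and 0.952 for S100a9. Cxcr2 was most like Csf3r (0.956), which without that mouse had 0.871 and ranked 6. Csf3r was most like Cd80 (0.967), a co-stimulatory ligand of myeloid cells, and S100a8 (0.962), which had 0.907 and 0.957 without it and then stood in the reverse order. Cxcl1 was most like Tnfaip3 (0.952), a gene induced by NF-κB that limits its activity, which without that mouse had 0.876 and ranked 4. Tnfaip3 was also among the 3 genes nearest to Csf3r (0.959) and Cxcr2 (0.946), with 0.888 and 0.851 without that mouse. The 3 genes nearest to Cxcl3 were no members but the cytokine genes Il1a (0.954), Ccl20 (0.938) and Ccl12 (0.924), which without it had 0.852, 0.786 and 0.784 and ranked 3, 11 and 12. The median r over all genes was 0.479 to 0.615 for the 6 members, and 0.243 to 0.506 without that mouse, so these values stand above a high common level.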

How the data were processed

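RNA of left lungs was read by the authors with the nCounter mouse Immunology panel on a Sprint profiler, which counts barcoded probes without amplification. Raw counts per probe, exported from nSolver, were deposited by the authors without background correction. Their deposited normalized table, taken as a signal, holds raw counts times 1 factor per mouse from 4 housekeeping genes (largest relative deviation 9.4e-05). The members and gene lists were chosen with earlier results of these data known.

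The main test was run with edgeR 4.0.16 in R 4.3.3, alternatives with DESeq2 1.42.0 and limma 3.58.1, and permutations in Python 3.11.15 (numpy 2.4.6, scipy 1.17.1). Genes whose scaled counts averaged 82 or more were tested by edgeR's quasi-likelihood test with the housekeeping scaling, with Benjamini-Hochberg adjustment over all genes tested and a threshold of 0.05. Over 20 mice, exposure and diet were factors of a single model. Diet after HDE was fitted in the 13 HDE mice, and the other contrasts in a 4-group model. Scaled counts are raw counts times the factor. Ratios used log2 of the raw counts, and correlations used log2(scaled count + 1). All permutation tests were two-sided, exact within diets or within exposures, or with 100000 resamples for correlations. The scripts were tested on simulated data. Named genes were the 6 members, the 4 genes with the smallest p for HDE of each of 4 pathway lists, and the 3 genes most like each member. Cxcr1, Ppbp, Il6, Il17a, Il17ra, Camp, Ltf, Trem1, Clec5a, Ceacam1, Ms4a1 and Cd79b were named after their values were seen. Of the panel's 547 names, 531 matched RefSeq symbols, the 6 members included. No 2 lanes matched to within counting noise, and 0 sample columns were left unused. Replicate numbers only name mice.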

Additional observations from a re-analysis of the deposited data

Results flagged for a closer look

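In the 6 mice on the control diet with HDE, the lowest mouse was separated from the rest by more than Dixon's 95% limit of 0.625 of the group's range (log2 scaled counts) for 4 of the 6 members. It was mouse 6 each time, with scaled counts of 27.5 for Cxcl1, 12.6 for Cxcl3, 16.9 for Cxcr2 and 46.8 for Csf3r. The gap took up 0.773, 0.702, 0.674 and 0.768 of the range. For S100a8 and S100a9, where it took up 0.583 and 0.465, the limit was not passed. In all, 21 sets of mice were examined, those of each member and of the summed share of S100a8 and S100a9 in the groups of 4 or more, and chance passes the limit in about 1 in 20. The 4 results come from 1 mouse and are not independent of each other. The limit was not applied to other genes, so no share over all genes stands beside them. Why this mouse differed was not tested, and the main results are also given without it.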

How the results depend on the processing

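Over the 20 mice all 6 members rose and were called after HDE with TMM scaling, all 14 housekeeping probes, DESeq2 with either kind of size factors, limma on the deposited values, background subtraction, a lower or no count filter, cartridge as a block, cartridge 1 alone and each mouse left out. A filter of 82 in every mouse left only S100a8 and S100a9 to test, so 2 were called, over 20 mice and on each diet. In cartridge 2 alone, which held 10 mice as cartridge 1 did, 40 of 342 genes were called higher, and 1 member was called, Cxcl3. The others were not (Cxcl1 4.35, Cxcr2 2.14, Csf3r 2.13, S100a8 2.54 and S100a9 2.56 on the log2 scale). Cartridge 2 held control-diet HDE mouse 6 and only 1 DHA-diet saline mouse, so within each diet only the values are given. Why fewer members were called there was not tested. There the control-diet values were Cxcl1 3.86, Cxcl3 5.92, Cxcr2 1.85, Csf3r 1.74, S100a8 1.96 and S100a9 2.11, and the DHA-diet values 5.48, 7.05, 2.75, 2.98, 3.98 and 3.60 in the same order.

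The control-diet calls were the least stable. S100a8 and S100a9 were not called with TMM scaling (1.71 and 1.76) or 14 housekeeping probes (2.13 and 2.20), and with limma on the deposited values 2 members were called and Cxcr2 (1.52), Csf3r (1.56), S100a8 (1.81) and S100a9 (1.60) were not. Leaving out 1 mouse at a time gave 1.70 to 2.30 for Cxcr2, 1.83 to 2.22 for Csf3r, 1.92 to 2.72 for S100a8 and 1.76 to 2.63 for S100a9, with 2 to 6 members called. On the DHA diet Cxcr2 ranged from 2.28 to 2.68. The cause of these losses was not tested.

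The sign of several diet effects changed with the setting. After HDE, Cxcr2 was -0.15 with TMM, -0.095 with 14 housekeeping probes, -0.14 with DESeq2's own size factors, -0.011 with cartridge as a block, -0.047 in cartridge 1 and -0.39 without control-diet HDE mice 3 and 6 (a choice made after seeing the data). Csf3r was -0.11, -0.040, -0.095, -0.25 and -0.29 in the same order, block aside, and Cxcl1 -0.010 without both mice. With 1 mouse left out the ranges were -0.015 to 0.68 for Cxcl1, -0.25 to 0.36 for Cxcr2, -0.29 to 0.18 for Csf3r and -0.080 to 1.01 for S100a9. Over 20 mice Cxcl1 was -0.12 with TMM, -0.086 with 14 housekeeping probes, -0.088 with DESeq2's own size factors, -0.049 with the block, -0.28 with background subtracted, -0.20 in cartridge 2 and -0.26 without both mice. S100a8 was -0.0057 with TMM and -0.16 without both mice, Cxcr2 0.045 with limma, and S100a9 0.23 with limma, 0.093 with the block and 0.24 in cartridge 2. The ranges with 1 mouse left out were -0.24 to 0.22 for Cxcl1, -0.33 to 0.063 for Cxcr2, -0.23 to 0.38 for S100a8 and -0.38 to 0.32 for S100a9. After saline, Cxcl3 was -0.21 in cartridge 2. Its interaction was 0.30 with limma and 1.12 in cartridge 2, and -1.85 to 0.36 with 1 mouse left out.

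With background subtracted the HDE changes of log2 ratios were -1.07 for Csf3r over Cxcr2, -1.06 for S100a8 over Cxcr2, -1.19 for S100a9 over Cxcr2 and -0.12 for S100a9 over Csf3r. For diet after HDE, Csf3r over Cxcr2 was 0.016 with cartridge means removed, and leaving out 1 mouse gave -0.39 to 0.0041 for Cxcr2 over Cxcl1, -0.011 to 0.60 for S100a9 over Cxcl1 and -0.027 to 0.17 for S100a9 over S100a8.

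No paired analysis was possible because the replicate numbers only name the mice. Saline counts of Cxcl1, Cxcl3 and Cxcr2 near background limit their folds.

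Over all genes, HDE raised 152 and lowered 18 over the 20 mice, 106 and 94 with TMM, 112 and 94 with DESeq2's own size factors, 87 and 12 with the filter in every mouse and 40 and 0 in cartridge 2. On the control diet 90 were higher, 60 with TMM, 41 with limma, 38 with the filter in every mouse, 54 in cartridge 1, and 33 to 143 with 1 mouse left out (lowest without control-diet saline mouse 4, highest without control-diet HDE mouse 6). On the DHA diet 109 were higher, 69 with that filter, and 46 to 127 with 1 mouse left out (lowest without DHA-diet saline mouse 3).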

Other observations

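Besides Cxcl3, the genes whose scaled counts were higher in all 6 HDE mice of cartridge 1 than in all 7 of cartridge 2 were Bax, Clu, Igf2r, Il18, Irak1, Irf7, Irf8, Psmb5 and Traf2. These genes were named after their values were seen. The cause of the separation was not tested.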
